A study of Mus musculus with 60 samples.

Results

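The carboxylesterases Ces1d, Ces1f, Ces2a, Ces2c and Ces2e, the sulfotransferases Sult1a1, Sult1b1, Sult1c2 and Sult1d1, and the UDP-glucuronosyltransferase Ugt2b34 were followed through mouse cholangiocyte organoids. These 10 genes were found by gene symbol among 31354 genes that occur in at least 1 of the 3 count tables, and all 10 were present in each table. Enzymes of these families process drugs, hormones and lipids: carboxylesterases cleave ester bonds, sulfotransferases attach sulfate taken from the donor PAPS, and UDP-glucuronosyltransferases attach glucuronic acid taken from UDP-glucuronic acid. Hepatocytes and enterocytes are known for high levels of many of them, whereas bile duct cells express fewer.

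The organoids were grown from bile ducts of male C57BL/6N mice of about 3 months of age. Cultures from 3 pools of animals were kept either in Matrigel domes or in shaking suspension with 10% Matrigel, giving 3 dome and 3 suspension libraries. Sets 1, 3 and 4, each from the liver of 1 mouse, were sequenced in bulk at passage 4 and at passage 11, with 2 technical replicates that were summed. Individual organoids were picked from suspension cultures of Set 1 at passage 11 (8 organoids), Set 2 at passage 3 (10), Set 3 at passage 3 (5) and Set 4 at passage 4 (12), so in the single organoids the mouse and the passage of Set 1 cannot be told apart. Within a set, all organoids came from 1 mouse, and P-values between sets cover only the spread between organoids of these cultures. In bulk and in single-organoid libraries alike, which each hold many cells, fewer expressing cells and less RNA per cell cannot be told apart.

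Levels are given as CPM, the counts of a gene scaled to a common library total with TMM factors. Total counts ranged from 1776490 to 14761853 in the dome and suspension libraries, from 639086 to 3175147 in the bulk passage libraries before summing, and from 1059002 to 11175868 in the 35 single organoids. At the smallest totals 1 CPM is about 1 count, so values near this level rest on few molecules. The ductal identity of the cultures was visible in all 3 tables: the 12 cholangiocyte and ductal markers, such as Krt19 and Epcam, were tested in each, and their summed level was 3862 CPM or more in every library. Of 18 hepatocyte markers, 6 were tested in the culture table and 5 in the passage table, and the list summed to 256 to 1215 CPM in the bulk libraries, most of it from Ttr in each, while Alb was at 4.96 CPM or less. Dome 1 had the highest total and stood apart from the other dome libraries in several genes. The 3 tables were normalised separately, so values from different tables are set side by side without a test.

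In GRCm38, Ugt2b34 spans chr5:86889767-86906937, and on the same chromosome and also on the minus strand lie Sult1b1 at chr5:87513339-87538195 and Sult1d1 at chr5:87554645-87569027. Ces1d lies at chr8:93166068-93197838 and Ces1f at chr8:93256236-93279747, both on the minus strand. Ces2a at chr8:104734003-104741634, Ces2c at chr8:104847068-104854483 and Ces2e at chr8:104926260-104934672 follow each other on the plus strand. Sult1a1 lies at chr7:126672865-126676432, where it overlaps Sgf29 on the opposite strand, and Sult1c2 at chr17:53829637-53846339. Ces1d overlaps the annotated gene Gm45909 on the same strand.

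The libraries read the 3′ ends of transcripts, so the similarity of those ends decides how well related genes can be told apart. Among all 50-base words of the last 600 bases of the annotated protein-coding transcripts, none of Sult1b1, Sult1c2, Sult1d1 or Ugt2b34 occurred in a transcript of another gene. The share was 1.45% for Ces1d and 1.81% for Ces1f, 5.92% for Ces2a, 5.72% for Ces2e and 5.96% for Sult1a1. For Ces2c it was 42.1%, mostly shared with Ces2d-ps, so counts of Ces2c may be divided with this gene and are uncertain.

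The 3 Ces2 genes gave the 3 largest called changes between passages, and the upstream sequences of these neighbours are shown. The 250 bases before the RefSeq transcription start (GRCm38.p6, plus strand) were chr8:104733753-104734002 for Ces2a, chr8:104846818-104847067 for Ces2c and chr8:104926010-104926259 for Ces2e. They are printed 5′ to 3′, with the longest runs that all 3 sequences share in capitals.
Ces2a: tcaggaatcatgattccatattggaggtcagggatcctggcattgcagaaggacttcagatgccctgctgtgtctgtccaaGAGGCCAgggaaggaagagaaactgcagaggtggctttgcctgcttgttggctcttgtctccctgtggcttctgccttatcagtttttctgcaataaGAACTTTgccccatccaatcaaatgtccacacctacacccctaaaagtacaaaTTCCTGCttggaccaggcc
Ces2c: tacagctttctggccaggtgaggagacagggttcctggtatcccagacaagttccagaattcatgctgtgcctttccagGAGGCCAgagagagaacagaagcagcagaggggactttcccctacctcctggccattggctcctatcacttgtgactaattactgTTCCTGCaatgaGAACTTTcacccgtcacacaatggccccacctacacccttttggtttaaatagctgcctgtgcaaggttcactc
Ces2e: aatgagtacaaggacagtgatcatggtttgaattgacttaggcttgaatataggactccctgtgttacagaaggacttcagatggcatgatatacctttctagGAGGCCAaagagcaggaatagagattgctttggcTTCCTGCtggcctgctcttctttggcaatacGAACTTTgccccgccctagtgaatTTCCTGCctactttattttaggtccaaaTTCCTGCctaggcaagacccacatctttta

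In global alignments of these sequences, 73.2% of the aligned bases were identical between Ces2a and Ces2c, 76.6% between Ces2a and Ces2e, and 73.2% between Ces2c and Ces2e. With gapped positions included the shares were 67%, 57.3% and 54.4%. Unrelated upstream sequences were not aligned for comparison. The run gaacttt began 72 bases before the start of Ces2a, 74 before that of Ces2c and 82 before that of Ces2e, and occurred on the gene strand in 1.68% of the 32851 upstream sequences of the mouse table. The equally long shared runs gaggcca and ttcctgc occurred in 3.52% and 3.76% of them. In the same order of genes, gaggcca began 169, 171 and 147 bases before the start, and the nearest ttcctgc 19, 86 and 30. Of 8 genes with an upstream sequence in that table, Ces2a and Ces2e held the word caaagttc (reverse complement gaactttg, which includes the run gaacttt), which occurred on either strand in 0.898% of all sequences. The nuclear receptor half-site aggtca (reverse complement tgacct) was present upstream of Ces2a and Sult1b1, and in 14% of all sequences. The words tataaa and caaagtcc, which occurred in 12.4% and 1.2% of all sequences, were found upstream of none of the 8. Ces1d and Ces1f were not matched in the table.

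Dome and suspension cultures were compared to see how the culture format bears on these enzymes. The dome cultures held more transcript of Ces2a, Ces2c, Sult1a1, Sult1b1, Sult1c2 and Ugt2b34 than the suspension cultures. For Ces1d, Ces1f and Ces2e the groups overlapped, and the higher fitted values in domes rested on Dome 1. Of the 9 genes tested, 8 were up-regulated in domes and none down-regulated (edgeR quasi-likelihood test, adj. P-value below 0.05 over 12699 genes), where 15% of all genes tested were called higher and 14.7% lower. None was lower at an unadjusted P-value below 0.05, by limma-voom or by DESeq2 either. The median log2 fold-change of the 9 genes was 2.92, against -0.04 over all genes tested. Without Dome 1, 6 of 9 were called higher, with a median of 1.17 against -0.10, and 13.9% of all genes were called higher. In 6 of the 9 genes every dome library lay above every suspension library, a pattern seen in 21.6% of all genes tested. Several of these genes passed the filter on low counts only through a dome library, so the counts and the median describe the genes that passed and not all 10. The 10 genes were chosen with earlier results of these data known, so the comparison with all genes is no test of these families.

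**Figure D1:**
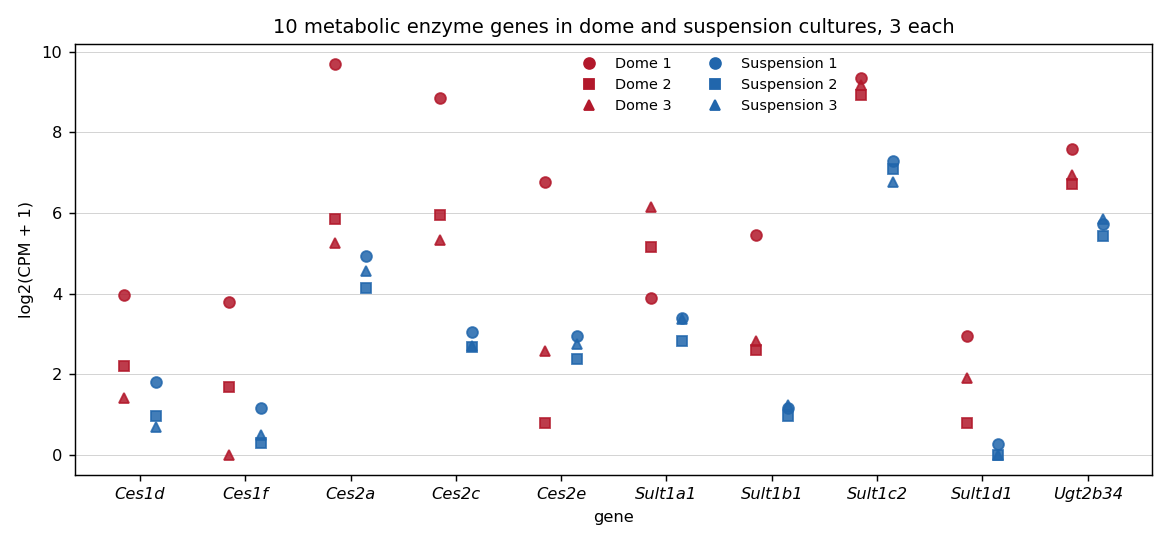
Level of each gene as log2(CPM + 1) in the 3 dome libraries (red) and the 3 suspension libraries (blue), with a symbol for each culture number. The dome libraries lie above the suspension libraries for Ces2a, Ces2c, Sult1a1, Sult1b1, Sult1c2, Sult1d1 and Ugt2b34, and Dome 1 stands far above the other dome libraries in the Ces2 genes.

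Ces2c, a hydrolase of acylglycerols and of ester drugs in liver and intestine, was at 463, 60.9 and 39.0 CPM in Dome 1, 2 and 3 and at 7.36, 5.44 and 5.51 CPM in Suspension 1, 2 and 3. Each dome library was above each suspension library, and Dome 1 was far above the other dome libraries. The log2 fold-change was 4.99 (SE 0.87, edgeR adj. P-value 0.00394), and 3.03 (edgeR adj. P-value 0.00027) without Dome 1.

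Ces2a, its neighbour with related substrates, was at 832, 56.5 and 37.4 CPM in the domes and at 29.5, 16.8 and 22.7 CPM in suspension. The groups did not overlap, but apart from Dome 1 the distance between them was small. The log2 fold-change was 3.77 (SE 1.00, edgeR adj. P-value 0.0194). It fell to 1.01 without Dome 1 (edgeR adj. P-value 0.0265), and the call was lost without Suspension 1, 2 or 3 (edgeR adj. P-values 0.0584, 0.0677 and 0.0752).

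Ces2e, the third member of the cluster, was at 108, 0.733 and 4.95 CPM in the domes, where Dome 2 had 1 count, and at 6.73, 4.26 and 5.79 CPM in suspension. Dome 1 was high, and the other dome libraries lay within or below the range of the suspension libraries. The log2 fold-change of 2.92 (SE 1.02) was not called (edgeR adj. P-value 0.0543). It was called without Dome 2 (3.43, edgeR adj. P-value 0.0148) or Dome 3 (3.41, edgeR adj. P-value 0.0268), and without Dome 1 the fitted value was -0.86 (edgeR adj. P-value 0.292).

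Ces1d and Ces1f, carboxylesterases that take part in the mobilisation of stored triacylglycerol in liver, were low outside Dome 1. Ces1d had 194, 5 and 3 counts in the domes (14.8, 3.67 and 1.65 CPM) and 12, 4 and 9 counts in suspension (2.53, 0.946 and 0.620 CPM). Ces1f had 168, 3 and 0 counts in the domes and 6, 1 and 6 in suspension. The groups overlapped for both genes. Their log2 fold-changes of 2.81 (SE 0.73, edgeR adj. P-value 0.0174) and 3.53 (SE 0.94, edgeR adj. P-value 0.0195) rested on Dome 1: without it they were 1.08 and 0.71, and neither was called (edgeR adj. P-values 0.369 and 0.714). Both calls were also lost without Suspension 2 (edgeR adj. P-values 0.0607 and 0.0655) or Suspension 3 (0.0993 and 0.108).

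Sult1c2, a cytosolic sulfotransferase of the SULT1C family, showed the closest agreement between dome cultures. It was at 650, 485 and 576 CPM in Dome 1, 2 and 3 and at 155, 136 and 107 CPM in suspension. The groups were far apart compared with the spread within each, with a log2 fold-change of 2.10 (SE 0.22, edgeR adj. P-value 0.000773). The fitted value stayed between 1.96 and 2.24 in the alternatives that were run.

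Sult1a1, the main phenol sulfotransferase of liver, was at 13.9, 34.5 and 69.8 CPM in the domes and at 9.47, 6.15 and 9.37 CPM in suspension. Its order among the domes was the reverse of that of Ces2a and Ces2c, with Dome 1 the lowest and Dome 3 the highest. The log2 fold-change was 2.16 (SE 0.50, edgeR adj. P-value 0.0116), and 1.36 (edgeR adj. P-value 0.031) without Dome 3.

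Sult1b1, which sulfates thyroid hormones and phenols, was at 42.6, 5.13 and 6.05 CPM in the domes and at 1.26, 0.946 and 1.38 CPM in suspension, where it had 6, 4 and 20 counts. All dome libraries were above all suspension libraries. The log2 fold-change was 4.05 (SE 0.76, edgeR adj. P-value 0.00487), and 2.16 (edgeR adj. P-value 0.00977) without Dome 1. Sult1d1, a neighbour of Sult1b1 that sulfates catecholamines and other phenols, had 89, 1 and 5 counts in the domes and 1, 0 and 0 in suspension. It did not pass the filter on low counts and was not tested. When Dome 2 or any suspension library was left out it passed the filter and was called higher, with edgeR adj. P-values of 0.00187 to 0.0252. In these fits it passed only through dome libraries, where it was high, so the calls are no independent support.

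Ugt2b34, a glucuronosyltransferase of the UGT2B family that acts on steroids and other lipophilic substrates, was at 192, 105 and 123 CPM in the domes and at 52.4, 41.9 and 57.2 CPM in suspension. The groups did not overlap, and the difference was larger than the spread within either group (log2 fold-change 1.48, SE 0.25, edgeR adj. P-value 0.00367).

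The wider enzyme families were described by the same test. Of 15 other carboxylesterase genes listed, 2 were tested and both rose in domes: Ces2g (log2 fold-change 1.57, SE 0.23, and 1.36 without Dome 1) and Ces2d-ps (5.14, SE 0.90), the gene whose 3′ end resembles that of Ces2c and which had 197, 5 and 2 counts in Dome 1, 2 and 3 and at most 2 in each suspension library. Of 17 other sulfotransferases 2 were tested and 1 rose, Sult2b1 (1.70, SE 0.26), a cholesterol sulfotransferase. Of 21 other UDP-glucuronosyltransferases 6 were tested and 5 rose, among them Ugt2b5 (2.91, SE 0.74) and Ugt2a3 (2.44, SE 0.66). Their list summed to 161, 24.2 and 30.2 CPM in Dome 1, 2 and 3 and to 10.6 to 25.0 CPM in suspension, and without Dome 1 none of the 6 was called by edgeR (Ugt2b5 1.00 and Ugt2a3 0.79). In the supply of sulfate and glucuronic acid donors 4 of 9 genes rose and none fell, including Papss2, which makes PAPS (1.34, SE 0.37), and Ugdh, which makes UDP-glucuronic acid (1.26, SE 0.29). Among 9 tested esterases and lipases outside the carboxylesterase family none was called, and of 3 sulfatases and glucuronidases tested 1 fell, Gusb (-0.72, SE 0.19). Of 7 tested nuclear receptors and other regulators of drug metabolism 3 rose: Nr1i2, the pregnane X receptor (2.25, SE 0.47), Nr1h4, the bile acid receptor FXR (1.19, SE 0.33), and Rxra (0.83, SE 0.27). Without Dome 1, Sult2b1 (1.55), Ugdh (1.54), Nr1i2 (2.48) and Gusb (-0.77) were still called. Papss2 (1.21), Nr1h4 (0.60) and Rxra (0.88) were not (edgeR adj. P-values 0.101, 0.203 and 0.0618). Gusb lost its call without Suspension 1, 2 or 3 (edgeR adj. P-values 0.068, 0.0788 and 0.0624). Ugdh lost its call without Suspension 1 or 3 (edgeR adj. P-values 0.05231 and 0.05275).

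Other markers differed in the same comparison. Of the 12 cholangiocyte and ductal markers 6 were higher in domes, among them Krt19 (2.00, SE 0.35), and 2 were lower, and the list summed to 7223 to 11401 CPM against 6173 to 6774 CPM. The 4 tested markers of intestinal epithelium, of 8 listed, were all higher in domes, and their list summed to 123 to 369 CPM in the domes, with the highest sum in Dome 1, against 65.7 to 76.8 CPM in suspension. In Dome 1, Fabp2 had 1729 counts and Alpi 353, against at most 28 and 3 in any other of these libraries, while Cdx1 and Muc2 were at 1 count or 0 and Lct was not analysed here. The hepatocyte list summed to 316 to 1026 CPM in domes and 256 to 646 CPM in suspension, with 2 of 6 tested markers higher. Without Dome 1, 2 of the 3 tested intestinal markers were higher, and of 6 hepatocyte markers 3 were higher and 1 was lower. Without Suspension 3, 3 of 4 intestinal markers were higher, and of 7 tested hepatocyte markers none was called. Of 14 cell cycle genes 13 were lower in domes, with list sums of 261 to 561 CPM against 946 to 1163 CPM. The macrophage list reached 93.1 CPM in Dome 2 and 29.1 CPM in Dome 3, against 3.37 to 9.46 CPM in suspension and 6.93 CPM in Dome 1. The part of these markers in the enzyme differences was not tested.

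Bulk cultures of Sets 1, 3 and 4 were compared between passages 4 and 11 to follow the same genes through prolonged culture. The passage of each library is that of its label, which is in doubt: the sources used here describe the direction of cell cycle genes between passages in opposite ways, and an exchange of the labels would turn every direction given for this comparison. The carboxylesterases of the Ces2 cluster and Sult1a1 were called higher at passage 11, mainly through Sets 1 and 3, while Sult1c2 and Ugt2b34 did not follow them. Of the 9 genes tested, 4 were up-regulated and none down-regulated (edgeR adj. P-value below 0.05 over 13738 genes), where 10.1% of all genes tested were called higher and as many lower. None was lower at an unadjusted P-value below 0.05, by limma-voom or by DESeq2. The median log2 fold-change of the 9 genes was 1.79, against -0.05 over all genes tested. The calls depended on single cultures. Without the passage 4 culture of Set 3 or of Set 4, 0 of 10 tested were higher, where 5.45% and 6.59% of all genes were. Without the passage 11 culture of Set 3, 1 of 7 was called higher and 1 lower, where 5.91% of all genes were called higher. The cultures of the 3 mice did not move alike. Among the 9 genes only Sult1d1, at no more than 14 counts, was higher in every passage 11 culture than in every passage 4 culture. Such a pattern was seen in 19.2% of all genes tested. Sult1d1 passed the filter on low counts only through the passage 11 cultures, so its separation followed from the filter and is no support. The counts and the median describe the genes that passed and not all 10. As the genes were chosen with earlier results known, the comparison with all genes is no test of these families here either.

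**Figure D2:**
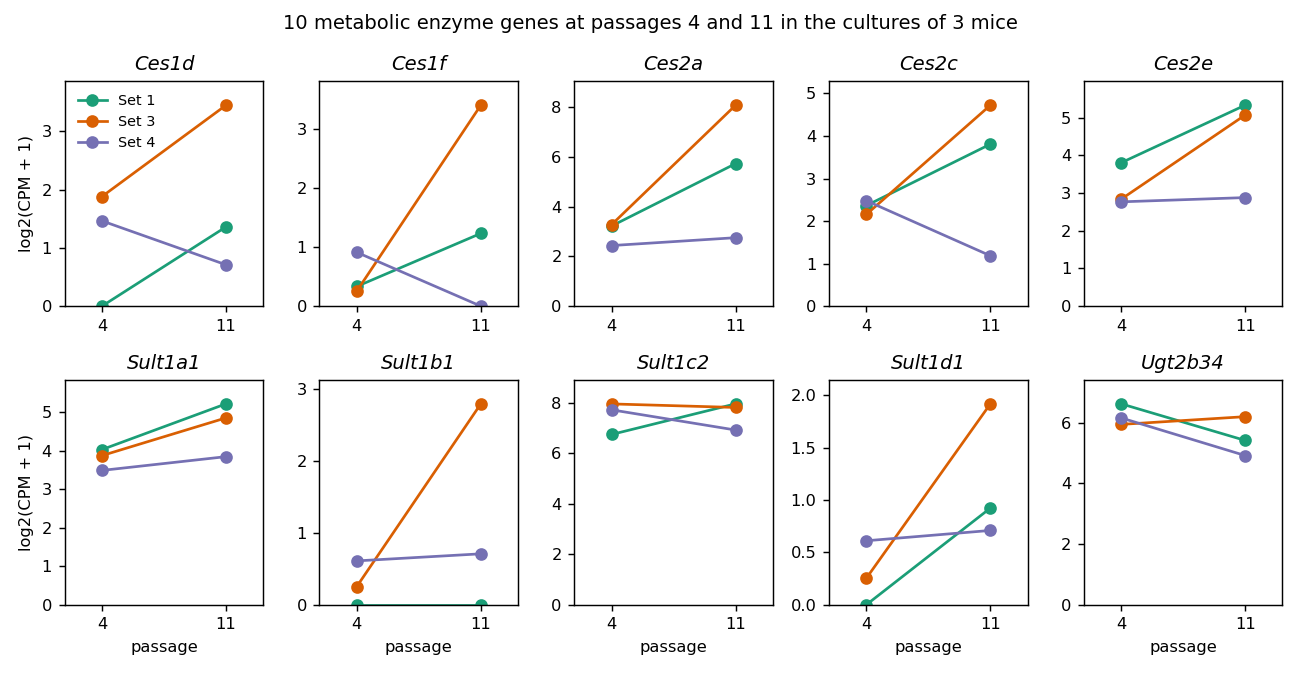
Level of each gene as log2(CPM + 1) at passages 4 and 11, with a line for the culture of each mouse (technical replicates summed). The lines of the Ces2 genes go up in Sets 1 and 3 but not clearly in Set 4, whereas those of Ugt2b34 go down in Sets 1 and 4 and slightly up in Set 3.

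Ces2a was at 8.30, 8.64 and 4.40 CPM at passage 4 in Sets 1, 3 and 4, and at 51.8, 268 and 5.72 CPM at passage 11. All sets were low at passage 4, and at passage 11 Set 3 was 31.0-fold, Set 1 6.25-fold and Set 4 1.3-fold above its own passage 4 culture. The log2 fold-change was 4.00 (SE 0.93, edgeR adj. P-value 0.0148). It was 2.18 without the passage 11 culture of Set 3 (edgeR adj. P-value 0.049), and the call was lost without the passage 4 culture of Set 3 or of Set 4 (edgeR adj. P-values 0.0511 and 0.0522).

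Ces2e was at 12.96, 6.14 and 5.81 CPM at passage 4 in Sets 1, 3 and 4, and at 39.3, 32.6 and 6.36 CPM at passage 11. It was higher in Sets 1 and 3, as Ces2a was, and the value of Set 4 at passage 11 lay within the passage 4 range (log2 fold-change 1.79, SE 0.49, edgeR adj. P-value 0.0276). The call was lost without the passage 11 culture of Set 1 or of Set 3 and without the passage 4 culture of Set 3 or of Set 4, with edgeR adj. P-values of 0.0846 to 0.1.

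For Ces2c, values at passage 4 were 4.15, 3.45 and 4.58 CPM, and values at passage 11 were 13.02, 25.5 and 1.27 CPM, with 2 counts in Set 4. It was higher in Sets 1 and 3 and lower in Set 4 (log2 fold-change 1.86, SE 0.57, edgeR adj. P-value 0.0429). With the mouse as a block the call was lost (1.59, edgeR adj. P-value 0.0534), and it was lost without any of the 6 cultures except the passage 11 culture of Set 4 (edgeR adj. P-values 0.0743 to 0.241).

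Sult1a1 rose from 15.3, 13.6 and 10.2 CPM at passage 4 to 36.1, 27.8 and 13.4 CPM at passage 11. Each set was higher at passage 11 than at passage 4, by 2.36-fold in Set 1, 2.04-fold in Set 3 and 1.31-fold in Set 4 (log2 fold-change 1.06, SE 0.30, edgeR adj. P-value 0.0316). The call was lost without the passage 11 culture of Set 1 or of Set 3 and without the passage 4 culture of Set 3 or of Set 4, with edgeR adj. P-values of 0.0818 to 0.117.

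Sult1c2 moved in opposite directions in different mice. It was at 106, 247 and 210 CPM at passage 4 in Sets 1, 3 and 4, and at 248, 224 and 120 CPM at passage 11. At passage 11 it was 2.34-fold higher in Set 1, 1.103-fold lower in Set 3 and 1.75-fold lower in Set 4. The fitted log2 fold-change was 0.08 (SE 0.31, edgeR adj. P-value 0.886).

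Ugt2b34 was at 97.7, 60.6 and 70.6 CPM at passage 4 and at 41.7, 72.6 and 29.3 CPM at passage 11. It was 2.34-fold lower at passage 11 in Set 1, 2.41-fold lower in Set 4 and 1.20-fold higher in Set 3. The difference was not called (log2 fold-change -0.62, SE 0.29, edgeR adj. P-value 0.151). Without the passage 11 culture of Set 3 it was -1.06 and was called lower (edgeR adj. P-value 0.0286).

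The remaining genes were high in Set 3 at passage 11 and low elsewhere. Ces1f had 1, 1 and 5 counts at passage 4 and 6, 48 and 0 at passage 11. Its log2 fold-change of 3.14 (SE 1.01) was not called (edgeR adj. P-value 0.0515), and with the mouse as a block it was (2.88, edgeR adj. P-value 0.0407), as it was without the passage 11 culture of Set 1 (0.0338) or of Set 4 (0.0231). Ces1d had 0, 14 and 10 counts at passage 4 and 7, 50 and 1 at passage 11 (log2 fold-change 1.57, SE 0.86, edgeR adj. P-value 0.229). Sult1d1 had 0, 1 and 3 counts and then 4, 14 and 1, and was not called (log2 fold-change 2.50, SE 0.82, edgeR adj. P-value 0.0553). Sult1b1 had 0, 1 and 3 counts and then 0, 30 and 1, and was not tested because of its low counts. Without the passage 11 culture of Set 1 it passed the filter and was called higher (edgeR adj. P-value 0.0211). Without the passage 4 culture of Set 1, 3 or 4 it passed and was not called (edgeR adj. P-values 0.216, 0.224 and 0.132). In these fits it passed only through passage 11 cultures, so the call is no independent support.

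The other enzymes of these families changed in few cases between passages. Ces2g, the only other carboxylesterase tested, rose (log2 fold-change 0.97, SE 0.19), as did Sult2b1 (1.22, SE 0.25), 1 of 2 other sulfotransferases tested. Of 5 other UDP-glucuronosyltransferases tested none rose and 1 fell, Ugt8a, which makes galactolipids (-2.17, SE 0.64). Of 9 genes for donor supply and transport 1 rose, Bpnt1 (0.73, SE 0.19), and of 8 tested regulators 1 fell, Ahr (-1.61, SE 0.25). Gusb, the lysosomal glucuronidase, rose by 1.02 (SE 0.18). Among 9 other esterases and lipases Pon2 rose (0.54, SE 0.15) and Esd fell (-0.90, SE 0.23). Ugt8a, Bpnt1, Pon2 and Esd each lost their call without 3 or more of the 6 cultures in turn (edgeR adj. P-values 0.0508 to 0.131), and the other genes named here kept theirs.

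The summed level of the intestinal marker list was higher at passage 11 in each set. The 3 tested markers of 8 listed were higher at passage 11, and the list summed to 174, 252 and 146 CPM in Sets 1, 3 and 4 against 62.2, 81.8 and 82.4 CPM at passage 4. In Set 3 at passage 11, Cdx1 had 22 counts, Alpi 29 and Sis 6, and these genes were at 0 in all 3 passage 4 cultures. Lct was not analysed here. The hepatocyte list summed to 963 to 1215 CPM at passage 11 and to 391 to 822 CPM at passage 4, with 1 of 5 tested markers higher, Apoa1 (4.66, SE 1.19). Without the passage 11 culture of Set 3, Apoa1 (1.58), Fabp2 (2.62) and Vil1 (0.69) were not called (edgeR adj. P-values 0.116, 0.071 and 0.0545). Of 14 cell cycle genes 12 were higher in the libraries labelled passage 11 and none was lower, with sums of 896 to 1388 CPM against 377 to 413 CPM. The part of these markers in the enzyme differences was not tested.

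Single organoids of Set 1, harvested at passage 11, were compared with organoids of Sets 2, 3 and 4, harvested at passages 3 and 4. Organoids of Set 1 held more Ugt2b34, Sult1a1, Sult1b1, Sult1c2, Ces2a and Ces2c than organoids of each other set. Of the 8 genes tested, 6 were higher than in Set 2, 6 higher than in Set 3 and 7 higher than in Set 4, and none was lower (edgeR, adjusted over 13927 genes and all 6 comparisons of sets), by limma-voom, DESeq2 or an unadjusted P-value below 0.05 either. The shares of all genes called higher in these comparisons were 7.08%, 4.3% and 12.4%, and those called lower 7.19%, 5.13% and 7.6%. The comparisons share the Set 1 organoids and are not independent. The median log2 fold-changes of the 8 genes were 1.56, 1.87 and 1.61, against 0.01, 0.03 and 0.02 over all genes. Sult1b1 passed the filter on low counts through Set 1, where it was high. The counts and the medians therefore describe the genes that passed and not all 10. They are no test of these families, because the genes were chosen with earlier results of these data known. Ces1d and Ces1f were not tested: Ces1f had 1 count in all 35 organoids together, and Ces1d at most 4 in any.

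**Figure D3:**
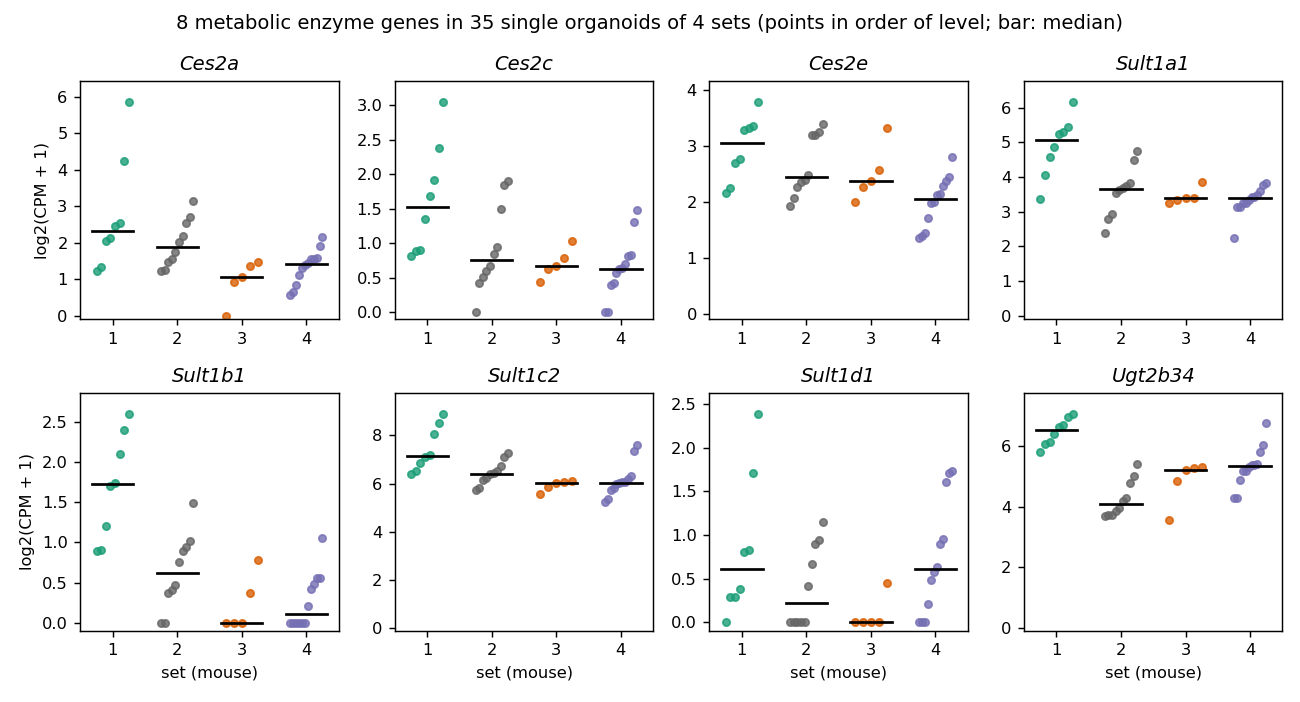
Level of 8 genes as log2(CPM + 1) in 35 single organoids by set, with points in order of level and a bar at the median. The organoids of Set 1 lie above all organoids of Sets 2 and 3 for Ugt2b34, and 1 organoid of Set 1 stands apart in Ces2a.

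Ugt2b34 ranged from 54.2 to 132 CPM in Set 1 (median 91.1), from 12.0 to 41.7 CPM in Set 2 (median 15.9), from 10.7 to 38.6 CPM in Set 3 (median 36.1) and from 18.4 to 107 CPM in Set 4 (median 39.3). All 8 organoids of Set 1 were above all organoids of Sets 2 and 3, while Set 4 overlapped Set 1. Such a separation, with Set 1 higher, was seen in 0.56% of all genes tested against Set 2 and in 1.6% against Set 3. None of the 8 genes was separated in this way from Set 4, where the share was 0.761%. The log2 fold-changes were 2.22 against Set 2 (SE 0.28, edgeR adj. P-value 3.8e-07), 1.61 against Set 3 (SE 0.35, edgeR adj. P-value 0.00145) and 1.05 against Set 4 (SE 0.26, edgeR adj. P-value 0.00448). In the 2 organoids of Set 1 that the study left out, Ugt2b34 was at 17.8 and 19.7 CPM (19 and 17 counts), within the ranges of Sets 2 and 3, so the separation holds for the kept organoids only. With all 42 organoids Set 1 was still called higher, by 1.95, 1.48 and 0.90 against Sets 2, 3 and 4 (edgeR adj. P-values 1.84e-05, 0.00846 and 0.0327). Ugt2b34 was also lower in Set 2 than in Set 4 (-1.16, SE 0.26, edgeR adj. P-value 0.00231), the only call among the 10 genes between sets other than Set 1. Neither Set 2 and Set 3 (-0.61, SE 0.33) nor Set 3 and Set 4 (-0.55, SE 0.32) differed beyond their spread.

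Sult1c2 ranged from 82.0 to 469 CPM in Set 1 (median 139.9), from 52.2 to 152 CPM in Set 2 (median 83.7), from 46.3 to 68.4 CPM in Set 3 (median 64.2) and from 37.1 to 194 CPM in Set 4 (median 64.7). Only Set 3 was fully below Set 1, and the difference within Set 1 between its highest and lowest organoids was 5.72-fold. The log2 fold-changes of Set 1 were 1.22 against Set 2 (SE 0.30, edgeR adj. P-value 0.00456), 1.79 against Set 3 (SE 0.38, edgeR adj. P-value 0.00136) and 1.39 against Set 4 (SE 0.28, edgeR adj. P-value 0.000706).

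Sult1a1 ranged from 9.32 to 70.4 CPM in Set 1 (median 32.6), from 4.28 to 25.8 CPM in Set 2 (median 11.6), from 8.62 to 13.6 CPM in Set 3 (median 9.48) and from 3.71 to 13.2 CPM in Set 4 (median 9.44). Sets 3 and 4 overlapped Set 1 only through its lowest organoid, and the medians of Sets 2, 3 and 4 were close to each other. Set 1 was higher by a log2 fold-change of 1.55 against Set 2 (SE 0.27, edgeR adj. P-value 8.86e-05), 1.77 against Set 3 (SE 0.34, edgeR adj. P-value 0.000385) and 1.83 against Set 4 (SE 0.25, edgeR adj. P-value 1.95e-06).

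Sult1b1 was low throughout, with 3 to 23 counts in the organoids of Set 1 (median 2.30 CPM) and at most 4, 2 and 3 counts in those of Sets 2, 3 and 4 (medians 0.540, 0 and 0.0787 CPM). Every Set 1 organoid was above every Set 3 organoid, and the values of the other sets overlapped those of Set 1. Set 1 was higher than Set 2 (log2 fold-change 1.96, SE 0.47, edgeR adj. P-value 0.0045), Set 3 (3.19, SE 0.71, edgeR adj. P-value 0.00192) and Set 4 (3.00, SE 0.49, edgeR adj. P-value 3.27e-05). Sult1b1 passed the filter on low counts through the organoids of Set 1, so these calls are no independent support. Sult1d1 had at most 10 counts in any organoid and was not called in any comparison of sets.

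Ces2a ranged from 1.321 to 56.7 CPM in Set 1 (median 3.96), from 1.31 to 7.79 CPM in Set 2 (median 2.69), from 0 to 1.77 CPM in Set 3 (median 1.08) and from 0.464 to 3.43 CPM in Set 4 (median 1.67). In Set 1, organoid 5 with 133 counts and organoid 1 with 178 counts (17.8 CPM) were high, and the other 6 organoids were at 4.77 CPM or less. Set 1 was called higher than Set 2 (log2 fold-change 1.98, SE 0.50, edgeR adj. P-value 0.00705), but not without organoid 5 (0.95, edgeR adj. P-value 0.122). Against Set 3 the value was 3.36 (SE 0.74, edgeR adj. P-value 0.00173), and against Set 4 it was 2.83 (SE 0.50, edgeR adj. P-value 0.000114), which became 1.81 (edgeR adj. P-value 0.00216) without organoid 5.

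Ces2c had 1 to 22 counts in the organoids of Set 1, and at most 7, 2 and 9 counts in those of Sets 2, 3 and 4. The sets overlapped, with medians of 1.88, 0.690, 0.595 and 0.547 CPM. Set 1 was higher than Set 2 (log2 fold-change 1.43, SE 0.47, edgeR adj. P-value 0.0378), Set 3 (1.96, SE 0.62, edgeR adj. P-value 0.0327) and Set 4 (1.86, SE 0.45, edgeR adj. P-value 0.00423). The call against Set 2 was lost without organoid 3, 4 or 5 of Set 1 (edgeR adj. P-values 0.0893, 0.0563 and 0.116). The call against Set 3 was lost without organoid 3 or 5 of Set 1 or organoid 1, 3, 4 or 5 of Set 3 (edgeR adj. P-values 0.0588 to 0.0791).

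Ces2e was the gene with the smallest log2 fold-changes of Set 1 against Sets 2 and 3 (0.35, SE 0.28 and 0.46, SE 0.34). It ranged from 3.47 to 12.8 CPM in Set 1 (median 7.30), from 2.78 to 9.52 CPM in Set 2 (median 4.43), from 2.97 to 9.03 CPM in Set 3 (median 4.21) and from 1.57 to 6.00 CPM in Set 4 (median 3.16). All sets overlapped, and only the comparison of Set 1 with Set 4 was called (log2 fold-change 1.07, SE 0.28, edgeR adj. P-value 0.0083).

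Between Sets 2 and 3 none of the 8 genes was called by edgeR, at an unadjusted P-value below 0.05, by limma-voom or by DESeq2, where 3.93% of all genes were called in either direction. Between Sets 3 and 4 none was called either by these tools, with 1 gene, Sult1d1, lower at an unadjusted P-value below 0.05 and 11.6% of all genes called. Between Sets 2 and 4 the call of Ugt2b34 stood against 5.35% of all genes called lower, and none was called higher, where 7.02% of all genes were. Ces2e was higher in Set 2 than in Set 4 at an unadjusted P-value below 0.05 (log2 fold-change 0.72, SE 0.28, edgeR adj. P-value 0.0828).

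**Figure D4:**
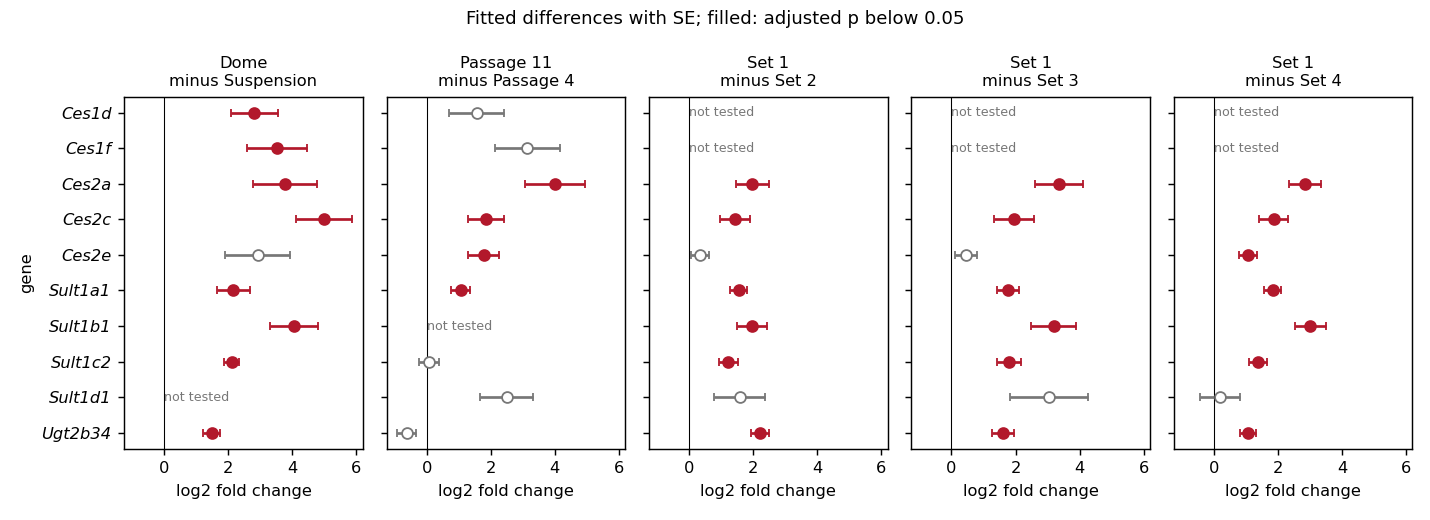
Log2 fold-changes of the 10 genes with their SE in 5 comparisons, where filled points passed an edgeR adj. P-value of 0.05. Values above 0 are higher in the group named first, and Ugt2b34 is higher in domes and in Set 1 organoids but has a negative, uncalled value between passages.

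Among related enzymes, Ugt2b36 was higher in Set 1 than in each other set, with log2 fold-changes of 2.14 (SE 0.37), 2.00 (SE 0.46) and 1.68 (SE 0.33) against Sets 2, 3 and 4, and so was Ugt2b5 (2.14, 2.79 and 2.08). Of 9 genes for donor supply and transport, Ugdh was higher in all 3 comparisons (0.99, SE 0.20 against Set 2, 0.77, SE 0.24 against Set 3 and 0.62, SE 0.18 against Set 4). Ces2g was higher than in Sets 2 and 3 (1.28, SE 0.27 and 1.77, SE 0.35). The paraoxonase Pon3, an esterase of another family, was higher in all 3 (0.89, SE 0.14, 0.69, SE 0.17 and 1.07, SE 0.14). Sult4a1, a sulfotransferase of brain, was lower in Set 1 than in Set 4 (-1.24, SE 0.30), and no other sulfotransferase outside the 10 genes was called between Set 1 and another set. Of 8 tested regulators, Ppara was higher than in Sets 3 and 4 (3.16, SE 0.87 and 2.06, SE 0.53), Nr1h4 higher than in Set 4 (1.62, SE 0.23) and Ahr lower than in Sets 2 and 3 (-0.82, SE 0.20 and -0.73, SE 0.23).

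Of 6 tested hepatocyte markers, 3, 3 and 4 were higher in Set 1 than in Sets 2, 3 and 4, and the list summed to 588 to 2675 CPM in Set 1 against 629 to 1614, 640 to 893 and 519 to 2667 CPM. The intestinal list summed to 92.7 to 131 CPM in Set 1 against 46.0 to 78.3, 61.1 to 98.9 and 53.8 to 84.8 CPM, with 2, 1 and 2 of 3 tested markers higher. Sis, Lct and Alpi were not analysed in single organoids. Of 14 cell cycle genes 6, 0 and 10 were lower in Set 1, and none was higher. The part of these markers in the enzyme differences was not tested.

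Organoids of the same set differed from each other in these genes. In Set 1 the coefficient of variation was 163% for Ces2a, 68.7% for Sult1c2 and 57.3% for Sult1a1, where the median over genes of similar level in that set was 31.9%, 27.2% and 28.5%. For Ugt2b34 in Set 1 it was 30.6%, near the 27.3% of similar genes, but in Set 4 it was 54.9% against 22.0%, and Sult1c2 in Set 4 reached 61.0% against 21.0%. In Set 4 these values rested on few organoids: without organoid 15, at 107 CPM, that of Ugt2b34 was 36.2%, and without organoids 13 and 15, at 162 and 194 CPM, that of Sult1c2 was 22.3%. Without organoids 1 and 5, Ces2a in Set 1 varied by 46.8%. In Set 3, Sult1c2 varied by 15.1% and Sult1a1 by 19.9%, against 20.4% and 27.1% for similar genes. The counting error alone would give 3.68% for Sult1c2 and 17.8% for Ces2a in Set 1.

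Within sets, the correlations between the genes were unequal. After subtraction of the set means, the correlation of log2 CPM over 35 organoids was 0.60 between Sult1a1 and Sult1c2, 0.43 between Sult1c2 and Ugt2b34 and 0.37 between Sult1a1 and Ugt2b34. It was 0.39 between Ces2a and Ces2c, 0.34 between Ces2a and Ces2e and 0.38 between Ces2c and Ces2e, and close to 0 between Ces2e and Sult1a1 (0.002) or Sult1c2 (-0.007). Sult1c2 also correlated with the log2 total of the library (0.44), which was higher in some organoids than in others of the same set. For Sult1a1 this correlation was 0.28 and for Ces2e -0.30. Ces2c averaged 2.2, 1.6 and 2.08 counts in Sets 2, 3 and 4. For Ces2e in Set 4 the coefficient of variation was 41.3%, where counting error alone would give 35.9%. Counting error lowers correlations, so low values do not show that genes vary apart.

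**Figure D5:**
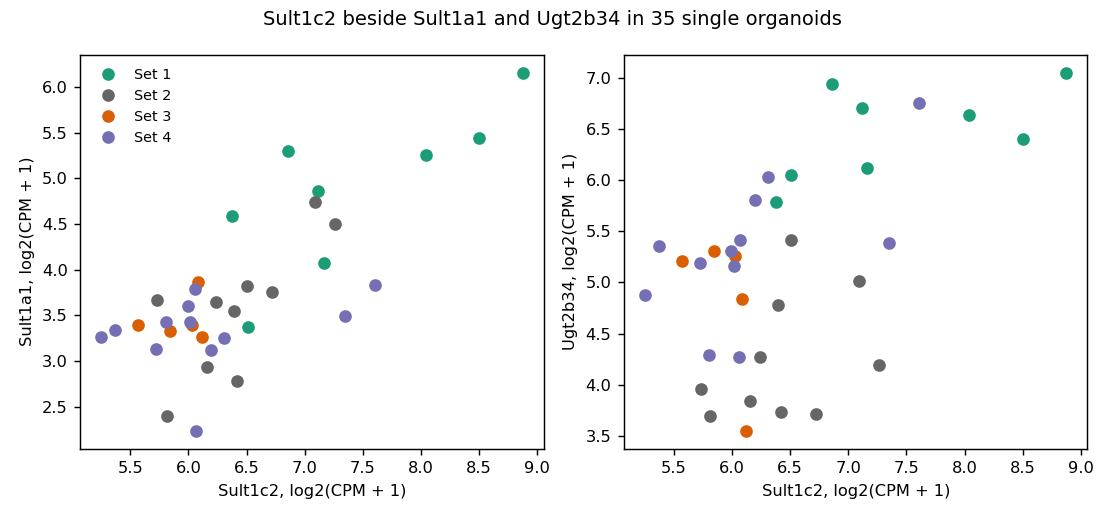
Sult1c2 on the x axis beside Sult1a1 and Ugt2b34 on the y axes, as log2(CPM + 1), in 35 single organoids coloured by set. Most organoids of Set 1 lie towards the upper right, and within sets Sult1a1 follows Sult1c2 with a correlation of 0.60.

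The genes with the most similar pattern over the same 35 organoids, again after subtraction of the set means, were Clu (r = 0.90), Ndufa6 (0.88) and Tff2 (0.87) for Sult1c2. For Sult1a1 they were Pdzk1ip1 (0.71), Fam3b (0.69) and Pttg1ip (0.69), and for Ugt2b34 they were Camk1d (0.72), Tm4sf20 (0.68) and Flrt3 (0.64). For Ces2a they were Mup20 (0.66), Rpl18-ps1 (0.63) and Gsta1 (0.60), and for Ces2e Dglucy (0.69), Fbxw9 (0.69) and Nisch (0.69). For Sult1b1 they were Ppp1r9b (0.58), Atg7 (0.53) and Cks2 (0.53), and for Sult1d1 Akr1c19 (0.55), Enkd1 (0.51) and Plpbp (0.51). Sult1b1 and Sult1d1 are near the counting limit in most organoids, so their correlations describe few molecules. These points share library depth and culture.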

How the data were processed

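The authors deposited whole-number gene counts for 3 experiments on mouse cholangiocyte organoids. They made 3′-end libraries with molecular identifiers and processed them with zUMIs, STAR, SAMtools 1.9 and featureCounts against mm10 (GRCm38) with Ensembl annotation. The sources used here do not give whether the counts are molecules or reads, or whether they precede the down-sampling the methods describe. Totals were 1059002 to 14761853 counts per culture, summed pair of technical replicates or organoid, so genes near 1 CPM rest on a few counts.

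In edgeR 4.0.16 (R 4.3.3), filterByExpr (minimum count 3), TMM scaling and quasi-likelihood F-tests were applied to all genes of a table, with Benjamini-Hochberg adjustment at 0.05. SE values were derived from the F statistic. Technical replicates were summed. The 4 sets of organoids shared a fit, and P-values were adjusted over their 6 comparisons. The study kept 35 of 42 organoids, and the other 7 enter only an alternative. All 60 samples were assigned from their labels, and passages of single organoids come from the study's methods. Alternatives were RLE factors, no filter, a minimum count of 10, limma-voom (limma 3.58.1), DESeq2 1.42.0, counts thinned to the lowest library total, blocking on the replicate number, omission of each replicate, 1 technical replicate, all 42 organoids, adjustment within a comparison and fits of 2 sets. Omission of Set 1 organoids, of each bulk culture from the gene lists and of the highest organoids from the spread within sets was added after seeing the data. The code was tested on simulated data.

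Same-numbered dome and suspension cultures deviated together weakly (r = 0.153, 0.165 and 0.191). Sets at both passages come from the same mouse (r = 0.110, 0.0283 and 0.108 for Sets 1, 3 and 4). The main tests did not use this pairing, and a block on the replicate number was run only as an alternative. Genes named were the 10 members, up to 3 called genes of each list with the largest absolute change, and the 3 genes most correlated with each member, among genes averaging a log2 CPM of 3 or more. The genes most correlated with Ces2c are not reported here. A few further list genes were chosen after their values were seen. The members and lists were chosen with earlier results of these data known. Positions and transcripts are from GENCODE M21, and upstream sequences, matched for 8 of 10 members, from RefSeq.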

Additional observations from a re-analysis of the deposited data

Results flagged for a closer look

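In Set 1, the Ces2a level of organoid 5, 56.7 CPM, stood apart from the next organoid at 17.8 CPM. In Set 3, the Sult1a1 level of organoid 4, 13.6 CPM, stood apart from the other 4, of which the highest was at 9.54 CPM, although the counts of the 2 organoids were 25 and 27. Among 20 combinations of gene and set examined these were 2, and chance flags about 1 in 20 where values are normally distributed. Set 4, with 12 organoids, was not examined in this way.

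Among the genes with more than 3 counts in every bulk culture, the change between passages took opposite directions in different mice for 2, in each technical replicate of each set. Ces2c, with 2 counts in Set 4 at passage 11, was also lower there in Set 4 and higher in Sets 1 and 3, as were Ces1d and Ces1f at few counts. For Sult1c2 the log2 difference between passage 11 and passage 4 was 1.22 in Set 1, -0.14 in Set 3 and -0.81 in Set 4. For Ugt2b34 it was -1.23 in Set 1, 0.26 in Set 3 and -1.27 in Set 4. These differences between mice were not tested.

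Of the 7 organoids left out by the study, several lay outside the range of the kept organoids of their set. Ugt2b34 was at 17.8 and 19.7 CPM (19 and 17 counts) in organoids 9 and 10 left out of Set 1, below all 8 kept organoids of that set, and at 9.48 CPM (9 counts) in organoid 10 left out of Set 4. The values that follow, each with more than 3 counts, lay above every kept organoid of the set. In the organoid left out of Set 3, Ces2a was at 5.01 CPM, Ces2e at 11.3 CPM, Sult1a1 at 15 CPM and Sult1c2 at 104 CPM. Ces2e was at 11.6 CPM in the organoid left out of Set 2 and at 9.97 and 6.32 CPM in organoids 8 and 10 left out of Set 4, and Sult1a1 was at 15.8 CPM in organoid 10. In organoid 9 left out of Set 1, Sult1d1 was at 23.4 CPM with 25 counts, where the 8 kept organoids had at most 10 counts.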

How the results depend on the processing

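No gene called here changed sign under any alternative. Genes without a call in either fit count as unchanged. The counts of genes called in domes and in the 3 comparisons with Set 1 stayed within 1.5 times under every alternative. Leaving out 1 library gave 6 to 10 genes higher in domes, 4 to 6 higher in Set 1 than in Set 2, 5 to 6 than in Set 3 and 7 in every case against Set 4. The highest count in domes includes Sult1d1, which passed the filter there only through dome libraries. The passage comparison depended most on the processing: instead of 4 genes higher and 0 lower, 8 were higher and 1 lower (Ugt2b34) without the filter on low counts, 2 were higher by limma-voom and 1 after thinning to the smallest total. Leaving out 1 passage culture gave 0 to 5 higher, with 0 without the passage 4 culture of Set 3 or of Set 4 and 1 without the passage 11 culture of Set 3, and 0 to 1 lower. The cause was not tested.

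With the pairing as a replicate block, 8 genes were higher in domes and 4 at passage 11, where Ces2c was lost and Ces1f gained; it changed no other call in these comparisons. Organoid numbers of different sets share only a number, and a block on them left 4 genes higher in Set 1 than in Set 2, 6 than in Set 3 and 7 than in Set 4, with 1 higher (Ces2e) and 1 lower in Set 2 than in Set 4. With all 42 organoids Sult1d1 was called higher in Set 1 than in Sets 2 and 3. Ces1d, Ces1f, Sult1b1 and Sult1d1 are limited by depth: differences in sets with at most a few counts could not be detected.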

Other observations

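In Set 1, Ugt2b34 was at 97.7 CPM in the bulk culture of passage 4 and at 41.7 CPM in that of passage 11, while the 8 single organoids of Set 1 at passage 11 had a median of 91.1 CPM. In Set 4 at passage 4, the bulk culture was at 70.6 CPM and the 12 single organoids had a median of 39.3 CPM. The passage labels of the bulk libraries are in doubt. With the labels exchanged, Set 1 at passage 11 would be at 97.7 CPM and Set 4 at passage 4 at 29.3 CPM. The study extracted total RNA from bulk cultures but mRNA from single organoids. The tables were normalised separately, and the differences were not tested.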
